A study of Caenorhabditis elegans with 8 samples.

Results

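The yolk protein genes vit-1 (K09F5.2), vit-2 (C42D8.2), vit-3 (F59D8.1), vit-4 (F59D8.2), vit-5 (C04F6.1) and vit-6 (K07H8.6), and rme-2 (T11F8.3), which encodes the yolk receptor of the oocyte, are described here on 8 Agilent arrays of Caenorhabditis elegans. All probes whose gene name, without its transcript suffix, is 1 of these 7 were taken. They are 8 of the 20401 probes of the array and stand for 7 of its 19441 genes. Each gene has 1 probe except vit-6, which has 2.

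Vitellogenins are the precursors of yolk and are made in the intestine of the adult hermaphrodite. They carry lipid, are secreted into the body cavity and are taken up by growing oocytes through RME-2, a receptor of the low-density lipoprotein receptor family. Larvae and males make little or no yolk, so vitellogenin mRNA is widely used as a sign that a hermaphrodite has entered adulthood.

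The arrays were labelled with 4 genotypes, each on 2 arrays. The double mutants were hpl-1; hpl-2, which keeps his-24, hpl-1 his-24, which keeps hpl-2, and hpl-2; his-24, which keeps hpl-1, and the triple mutant was labelled hpl-2; hpl-1 his-24. The labels of all arrays give the alleles tm1624 for hpl-1, tm1489 for hpl-2 and ok1024 for his-24, and the strain as N2. The study's text also names another hpl-1 allele, n4317, for an hpl-1; hpl-2 double mutant in another assay, and the allele carried by the animals of these arrays was not tested. hpl-1 and hpl-2 encode the worm's homologues of heterochromatin protein 1, which binds methylated histone tails, and his-24 encodes a linker histone. Each array held the RNA of 80 to 100 pooled whole animals grown at 21 °C, given as L4 larvae and young adults in the labels and as L4 larvae in the methods. Neither wild type nor single mutants were analysed here, so every difference below lies between mutants that are each labelled as lacking at least 2 of the 3 genes.

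A genotype below is the label of its arrays. The his-24 probe was not well above background on any of the 6 arrays labelled with his-24, and hpl-2 was lower on the 6 arrays labelled with hpl-2 than on the other 2. The hpl-1 probe was dark on the 2 arrays labelled hpl-1; hpl-2 but well above background on the arrays, 4 in all, that were labelled as hpl-1 his-24 or as the triple mutant, which goes against those labels. The log2 signal of this probe was -0.36 and -0.30 in hpl-1 his-24 and -0.60 and -0.53 in the triple mutant. These values lie near the -0.49 and -0.65 of hpl-2; his-24, which is labelled as keeping hpl-1. In hpl-1; hpl-2 it was -9.04 and -8.81. Whether that probe lies in the deleted part of hpl-1 is not given in the sources used here. The 2 arrays of hpl-2; his-24 shared a slide and a scan day that held no other genotype, so genotype and slide cannot be told apart there. They also differed more from each other than other replicates did, with an SD of the difference between them of 0.53 on the log2 scale against 0.24 to 0.25 for the other genotypes.

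Signals below are log2 intensities relative to the 75th percentile of their array, so a value of 5 lies 5 log2 units above that percentile. All 8 yolk and receptor probes stood well above background on each of the 8 arrays, and none of their 128 spots was saturated or marked as an outlier. The 7 bright probes, 1 of each gene, were among the brightest 1.71% of the 20401 probes on every array. Brightness depends on the probe as well as on the RNA, so this order does not rank the genes by abundance. In whole animals, fewer cells of a type and less RNA per cell cannot be told apart.

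The vit genes fall on chromosome X except vit-6, which with rme-2 is on chromosome IV. In the reference annotation vit-3 and vit-4 are neighbours with 0 protein-coding genes between them. Some of the vit genes are close copies of each other, and the array's own annotation shows it. The vit-4 probe also matches vit-5, the vit-5 probe also matches vit-4, and the vit-2 probe also matches vit-1. The vit-1, vit-3, vit-6 and rme-2 probes list their own gene alone. Values of vit-2, vit-4 and vit-5 are therefore uncertain as values of a single gene.

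The probes of vit-1 and vit-3 were the 2 of 8 on which the arrays of each genotype lay apart from those of every other. The share of all identifiers that separate in this way was not counted, so this does not mark the 2 genes as unusual. The log2 signal of vit-1 was 5.878 and 6.004 on the 2 arrays of hpl-2; his-24. It was 5.79 and 5.72 in hpl-1 his-24, 4.96 and 5.05 in hpl-1; hpl-2, and 4.47 and 4.59 in the triple mutant. The brightness rank of its probe among all probes, which needs no scaling, followed the same order. It was 43 and 48 in hpl-2; his-24 and 83 and 98 in hpl-1 his-24. It was 150 and 181 in hpl-1; hpl-2 and 191 and 239 in the triple mutant. The unscaled intensities of vit-1 overlapped between the 2 highest genotypes and between the 2 lowest. They were 276149 and 295987 in hpl-2; his-24, and 269356 and 298007 in hpl-1 his-24. In hpl-1; hpl-2 they were 264928 and 171685, and in the triple mutant 164812 and 173601.

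By limma, the log2 fold change of vit-1 in triple mutants relative to hpl-2; his-24 was -1.41 (SE 0.10, n = 2 against 2, adjusted p = 0.00021), which is 2.66-fold. Relative to hpl-1 his-24 it was -1.22 (adjusted p = 0.0002) and relative to hpl-1; hpl-2 it was -0.48 (adjusted p = 0.018). vit-1 was also lower in hpl-1; hpl-2 relative to hpl-1 his-24, at -0.75 (adjusted p = 0.0016). The 2 highest genotypes were not told apart, with a difference of 0.19 between hpl-2; his-24 and hpl-1 his-24 (95% interval -0.05 to 0.42, adjusted p = 0.13).

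vit-3 covered the widest range of the members, 1.94 log2 units. Its signal was 5.51 and 5.76 in hpl-2; his-24, 5.46 and 5.07 in hpl-1 his-24, 4.62 and 4.95 in hpl-1; hpl-2, and 4.42 and 3.81 in the triple mutant. The 2 triple mutant arrays were the lowest of the 8. The 2 vit-3 spots of triple mutant replicate 2 read 84658 and 122301 intensity units, 0.53 log2 units apart. On the other arrays they differed by 0.096 or less. The difference of triple mutants from hpl-2; his-24 was -1.52 (SE 0.24, adjusted p = 0.0035) and that from hpl-1 his-24 was -1.15 (adjusted p = 0.011). In the order hpl-2; his-24, hpl-1 his-24, hpl-1; hpl-2, triple mutant, no neighbours passed the test over 8 arrays, with adjusted p of 0.22, 0.17 and 0.097, although their arrays did not overlap. On the 4 arrays of triple mutants and hpl-1; hpl-2 alone, with slide as a block, the difference between these 2 did pass (adjusted p = 0.0086).

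vit-4, the neighbour of vit-3, read 6.05 and 6.12 in hpl-2; his-24, 6.15 and 5.90 in hpl-1 his-24, 5.40 and 5.67 in hpl-1; hpl-2, and 5.25 and 4.88 in the triple mutant. vit-5 read 6.11 and 6.14, 6.17 and 6.07, 5.46 and 5.81, and 5.45 and 5.27 in the same order. Both were high in hpl-2; his-24 and hpl-1 his-24 and lower in the other 2 genotypes, without overlap between these pairs of genotypes. In the triple mutant vit-4 differed from hpl-2; his-24 by -1.02 (adjusted p = 0.0036) and by -0.96 from hpl-1 his-24 (adjusted p = 0.0049), and vit-5 by -0.77 (adjusted p = 0.0051) and -0.76 (adjusted p = 0.006). From hpl-1; hpl-2 the differences of -0.47 for vit-4 and -0.28 for vit-5 did not pass the test (adjusted p = 0.09 and 0.19). The 2 high genotypes were not told apart by either gene, at 0.06 for vit-4 and 0.01 for vit-5 (adjusted p = 0.75 and 0.96).

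**Figure D1:**
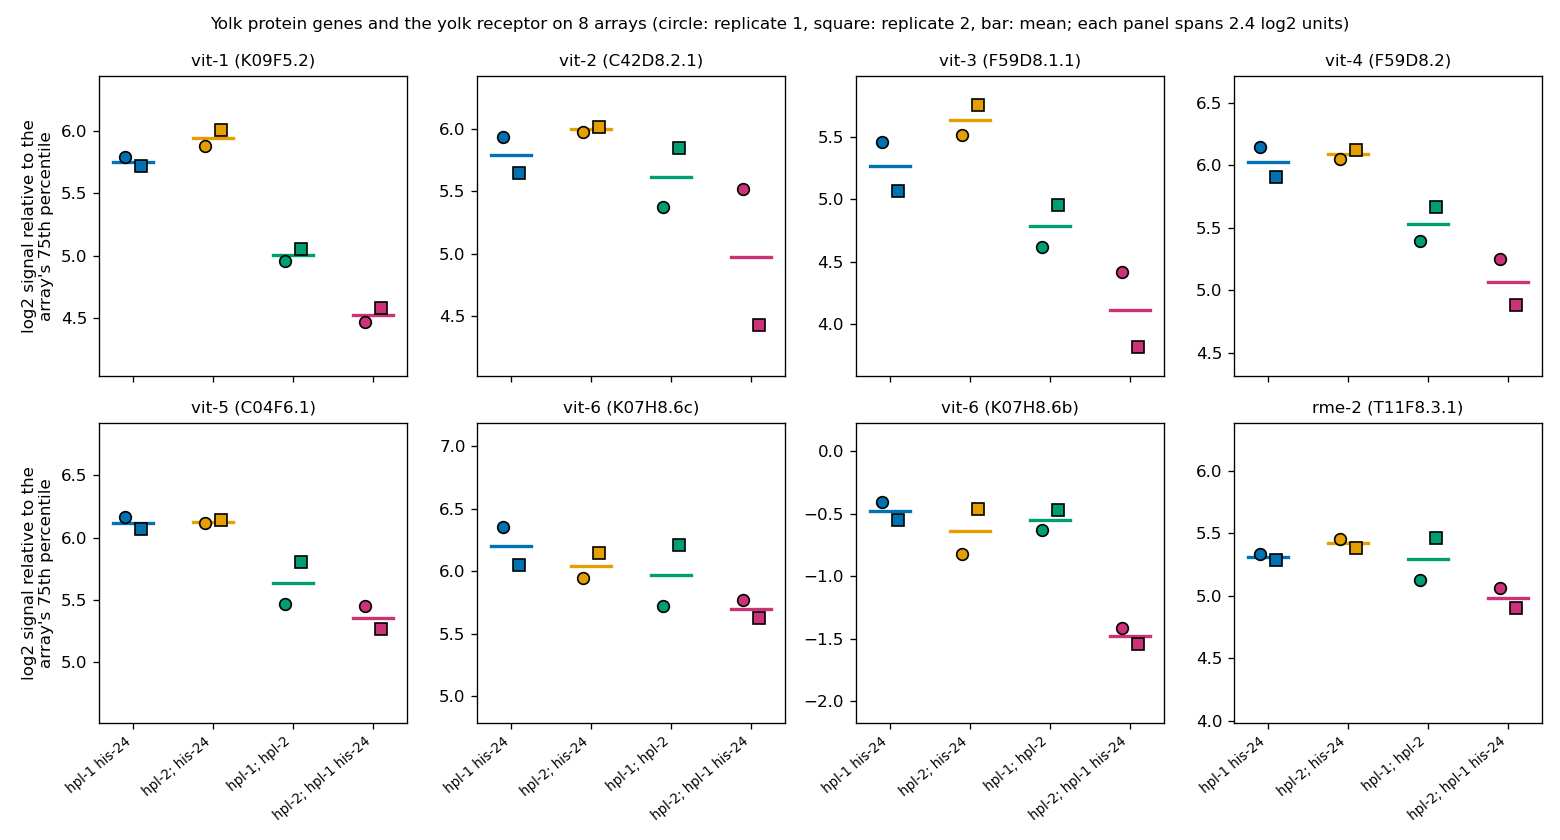
Log2 signal relative to the 75th percentile of each array (vertical axis) of the 8 probes by labelled genotype (horizontal axis), with 1 point per array and a bar at the mean of 2 arrays. The vit-1 points fall into separate groups from 6.004 in hpl-2; his-24 down to 4.47 in the triple mutant, and the K07H8.6b probe is low only in the triple mutant, at -1.42 and -1.54.

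vit-2 was measured less precisely. Its signal was 5.98 and 6.02 in hpl-2; his-24, 5.94 and 5.65 in hpl-1 his-24, 5.38 and 5.85 in hpl-1; hpl-2, and 5.52 and 4.43 in the triple mutant. The low last value came from 1 spot. The 2 vit-2 spots of that array read 367172 and 66386 intensity units, 2.47 log2 units apart, whereas the 2 spots of a member probe differed by a median of 0.13. The same spot was the dimmer of the pair on all 8 arrays, by 0.13 to 1.05 on the other 7, and the scanner software marked it as an outlier on none.

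With both spots, vit-2 was lower in triple mutants than in hpl-2; his-24 by -1.02 (adjusted p = 0.048), and the differences from hpl-1 his-24 (-0.82, adjusted p = 0.11) and from hpl-1; hpl-2 (-0.64, adjusted p = 0.23) did not pass. Without the dimmer spot on all arrays, an alternative chosen after the spots were seen, the 3 differences were -0.32, -0.43 and -0.16 and none passed (adjusted p = 0.22, 0.13 and 0.58). No comparison of vit-2 passed both with and without that spot.

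**Figure D2:**
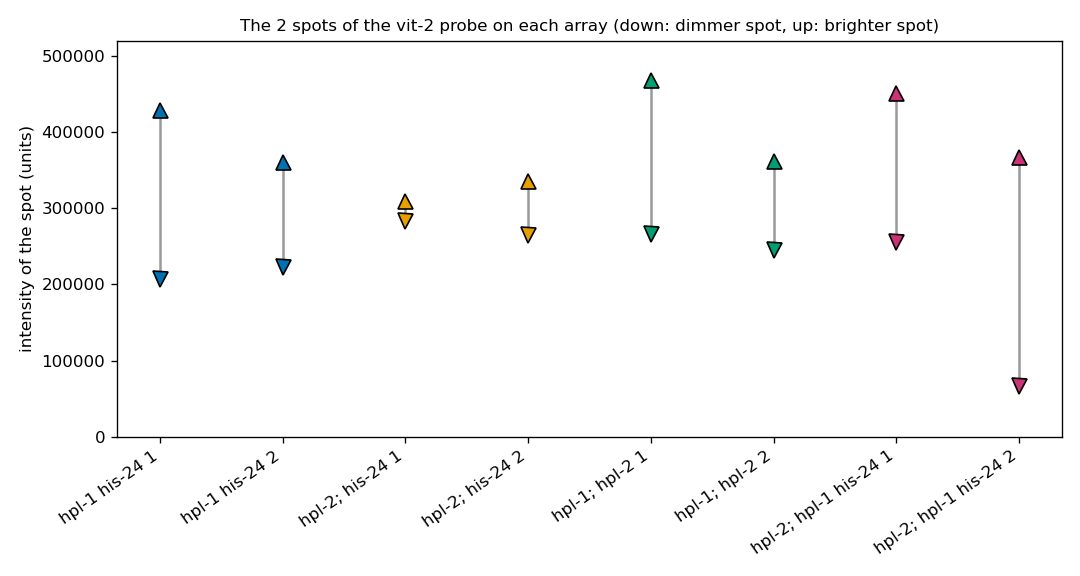
Intensity (vertical axis, units) of the 2 spots of the vit-2 probe on each of the 8 arrays (horizontal axis, genotype and replicate), with the 2 spots of an array joined by a line. The spots lie within 1.05 log2 units on 7 arrays, and on triple mutant replicate 2 they stand at 367172 and 66386 units.

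vit-6 differs from the other vit genes in that its product is cleaved into smaller yolk proteins. The bright vit-6 probe, K07H8.6c, read 5.94 and 6.15 in hpl-2; his-24, 6.35 and 6.05 in hpl-1 his-24, 5.73 and 6.21 in hpl-1; hpl-2, and 5.77 and 5.62 in the triple mutant. No pair of genotypes passed the limma test. The difference of triple mutants from hpl-1 his-24 was -0.51 (95% interval -0.97 to -0.04, adjusted p = 0.076), and in the authors' quantile-normalized table it was 0.02. The second probe, K07H8.6b, matches that transcript alone and was far dimmer. It read -0.82 and -0.46, -0.40 and -0.55, -0.63 and -0.47, and -1.42 and -1.54 in the same order. Its signal fell in triple mutants relative to hpl-1 his-24, hpl-1; hpl-2 and hpl-2; his-24, by -1.003, -0.931 and -0.840 (adjusted p = 0.0024, 0.0067 and 0.0045), and the means of the other 3 genotypes lay within 0.16 of each other. Whether the 2 vit-6 probes differ from each other in response was not tested.

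rme-2, the receptor through which oocytes take up yolk, varied least of all members, over 0.56 log2 units. It read 5.46 and 5.39 in hpl-2; his-24, 5.33 and 5.28 in hpl-1 his-24, 5.12 and 5.46 in hpl-1; hpl-2, and 5.06 and 4.90 in the triple mutant. The triple mutant arrays were the 2 lowest. The difference from hpl-2; his-24 was -0.44 (SE 0.13, adjusted p = 0.034), and those from hpl-1 his-24 and hpl-1; hpl-2 were -0.32 and -0.31 (adjusted p = 0.097 and 0.14). Among the double mutants rme-2 differed by 0.13 or less, with adjusted p of 0.455 to 0.944. The call against hpl-2; his-24 was kept under 10 of 21 alternatives and lost under 10, among them quantile normalization (-0.15, adjusted p = 0.19) and the fits without any 1 array of triple mutants, hpl-1 his-24 or hpl-2; his-24, and the difference was 0.22 without scaling. Its direction changed with the scaling in other comparisons too. Relative to hpl-1 his-24, triple mutants stood at 0.14 under quantile normalization, 0.20 in the authors' quantile-normalized table and 0.15 without scaling (adjusted p = 0.23, 0.089 and 0.75). In hpl-1; hpl-2 relative to hpl-1 his-24 the difference of -0.02 became 0.32 in the authors' table (adjusted p = 0.02).

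Counted over the 8 probes, 7 were lower in triple mutants than in hpl-2; his-24 at an adjusted p below 0.05. Of all 17092 identifiers tested, 23.3% were lower and 27.6% higher in that comparison. All but the bright vit-6 probe were among them. Against hpl-1 his-24, 5 of 8 were lower, beside 19.1% of all identifiers lower and 22.9% higher. Against hpl-1; hpl-2, vit-1 and the K07H8.6b probe were lower, so 2 of 8, beside 10.9% of all identifiers lower and 11.7% higher. The median log2 fold change of the 8 probes was -0.93, -0.89 and -0.47 in these comparisons, beside medians of -0.00, 0.07 and 0.02 over all identifiers. The 3 comparisons share the triple mutant arrays and are not independent of each other. Without any scaling 1 probe remained lower against hpl-2; his-24 and 0 in the other comparisons, as given below, beside a share of all identifiers that was not counted.

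When a log2 fold change beyond 1.5 was also asked for, 1 of the 8 probes was called, vit-3 in triple mutants relative to hpl-2; his-24, at -1.52, beside 1.49% of all identifiers called lower and 10.9% in either direction. This call sat at the threshold, and it was not tested without the dimmer vit-3 spot of triple mutant replicate 2. It was lost without replicate 2 of hpl-2; his-24 (-1.40) and without replicate 2 of the triple mutant (-1.22), and without replicate 1 of the triple mutant vit-3 stood at -1.82 and 2 probes were called. No probe was called in the other 5 comparisons. There, 3.94% of all identifiers were called in triple mutants relative to hpl-1; hpl-2 and 8.21% relative to hpl-1 his-24, 8.16% in hpl-1; hpl-2 relative to hpl-1 his-24, and 16.5% and 8.02% in hpl-2; his-24 relative to hpl-1 his-24 and to hpl-1; hpl-2. At an unadjusted p below 0.05, limma counted 4, 7 and 7 of the 8 probes in triple mutants relative to hpl-1; hpl-2, hpl-1 his-24 and hpl-2; his-24, beside 37.98%, 51.1% and 58.4% of all identifiers. With 2 arrays against 2, an exact permutation test of a single gene cannot go below p = 0.333.

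**Figure D3:**
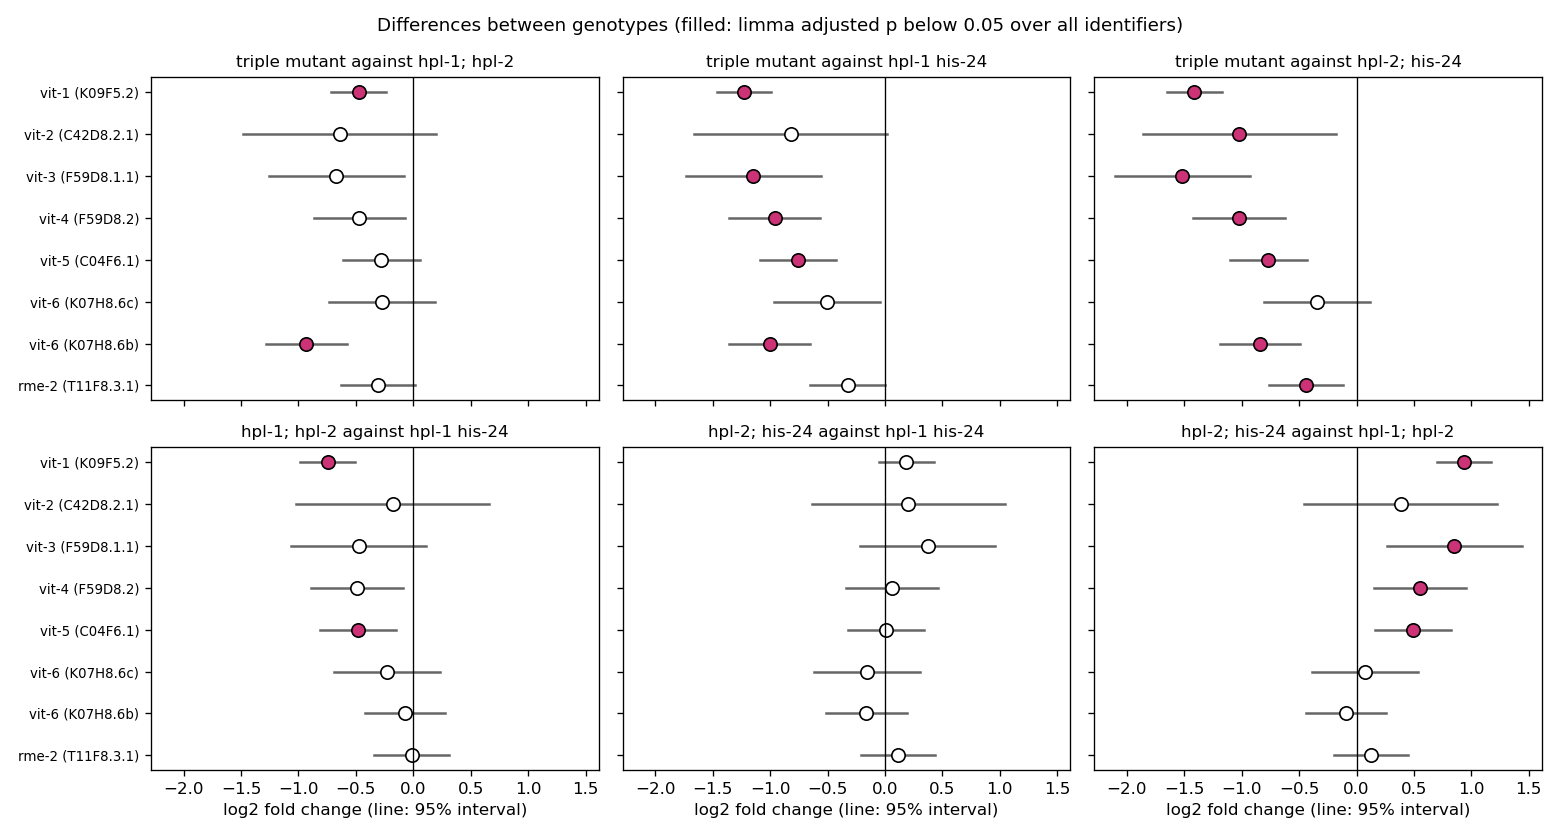
Log2 fold change (horizontal axis) with its 95% interval of the 8 probes (vertical axis) in the 6 comparisons, filled where limma's adjusted p over all identifiers was below 0.05. In the 3 comparisons of the triple mutant every point lies below 0 at this scaling (rme-2 and the bright vit-6 probe turn above 0 under others), and between hpl-2; his-24 and hpl-1 his-24 no point is filled.

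Triple mutants can be compared with hpl-1; hpl-2 within slides, since 2 slides each held 1 array of both. All 8 probes were lower in the triple mutant on both slides. By the means of the genotypes, 48.5% of all identifiers and 87 of the 100 brightest other identifiers were lower as well. vit-1 was lower by -0.38 and -0.58, vit-2 by -0.95 and -0.33, vit-3 by -0.81 and -0.53, vit-4 by -0.51 and -0.42, vit-5 by -0.20 and -0.36, K07H8.6b by -0.91 and -0.95, the bright vit-6 probe by -0.10 and -0.44, and rme-2 by -0.22 and -0.40. In a fit of these 4 arrays alone with slide as a fixed block, 6 of the 8 probes passed instead of 2. The share of all identifiers that passed in this fit was not counted. vit-2, vit-3, vit-4 and rme-2 were added, at adjusted p of 0.034, 0.0086, 0.013 and 0.05. That of vit-2 includes the low spot of triple mutant replicate 2. With slide as a random block on all 8 arrays the count was 2. Without slide, the count of 2 fell to 0 when replicate 2 of the triple mutant or replicate 2 of hpl-1; hpl-2 was left out, and to 1 without replicate 1 of hpl-1; hpl-2.

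Among the double mutants, vit-1 and vit-5 were lower in hpl-1; hpl-2 relative to hpl-1 his-24, at -0.75 and -0.48 (adjusted p = 0.0016 and 0.033), so 2 of 8 probes beside 18.7% of all identifiers lower and 20.2% higher. The count was 1 without replicate 1 or replicate 2 of hpl-1 his-24 or replicate 1 of hpl-1; hpl-2, and 1 with replicate number as a block. Set against hpl-1; hpl-2, hpl-2; his-24 had higher vit-1 (0.93, adjusted p = 0.00077), vit-3 (0.85, adjusted p = 0.027), vit-4 (0.56, adjusted p = 0.031) and vit-5 (0.49, adjusted p = 0.025), which are 4 of 8 beside 23.5% of all identifiers higher and 28% lower. vit-5 stood at -0.02 there without scaling. That count was 1 without replicate 2 of hpl-2; his-24 or replicate 1 of hpl-1; hpl-2, and 2 without replicate 2 of hpl-1; hpl-2.

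Of hpl-2; his-24 relative to hpl-1 his-24, 0 of the 8 probes passed, also at an unadjusted p below 0.05, beside 33.5% of all identifiers higher and 32.1% lower at an adjusted p below 0.05. Differences ran from -0.16 to 0.37. The 95% interval for vit-5 was -0.32 to 0.34 and that for rme-2 was -0.21 to 0.44, so a change of vit-5 by more than 0.34 or of rme-2 by more than 0.44 lies outside these intervals. For vit-2 the interval of -0.64 to 1.04 was wide. In the authors' quantile-normalized table vit-3 and rme-2 were higher in hpl-2; his-24 here, by 0.45 and 0.32 (adjusted p = 0.038 and 0.012).

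The size of these differences, and for some probes their direction, depends on relating each array to its own 75th percentile. As deposited, the percentile was 4697 and 4613 intensity units in hpl-2; his-24, 4873 and 5661 in hpl-1 his-24, 8501 and 5179 in hpl-1; hpl-2, and 7418 and 7231 in the triple mutant. The median intensity of the 6 vit genes lay between 276703 and 355728 on 7 arrays and was 193372 on triple mutant replicate 2. Without any scaling, the median of all identifiers stood 0.65 higher in triple mutants than in hpl-2; his-24. vit-1 was then at -0.76 and vit-3 at -0.86, and of the 8 probes vit-3 passed (adjusted p = 0.037). rme-2 and the bright vit-6 probe turned to 0.22 and 0.31 (adjusted p = 0.63 and 0.49). Likewise 0 of 8 passed in each of the other 5 comparisons without scaling. The share of all identifiers that passed without scaling was not counted, so the loss of passes does not mark the yolk genes as unusual. The same holds for the counts of listed genes without scaling given below.

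By their medians, other very bright genes moved in the direction of the yolk probes in all comparisons except hpl-2; his-24 relative to hpl-1 his-24. In triple mutants relative to hpl-2; his-24, the median over the 100 brightest identifiers apart from the members was -0.34 on the log2 scale, with 91 of them lower, beside -0.93 for the 8 yolk probes. Against hpl-1 his-24 their median was -0.48, with 96 lower, and against hpl-1; hpl-2 it was -0.21, with 87 lower. In hpl-1; hpl-2 relative to hpl-1 his-24 the bright genes stood at -0.28 and the yolk probes at -0.35. In hpl-2; his-24 relative to hpl-1; hpl-2 the medians were 0.14 and 0.44. In hpl-2; his-24 relative to hpl-1 his-24 the bright genes stood at -0.14, with 82 lower. The yolk probes stood at 0.09 there, with 2 of 8 lower. The highest member spot reached 68.98% of the scanner's ceiling. The part of signal compression at high brightness in the yolk differences was not tested.

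**Figure D4:**
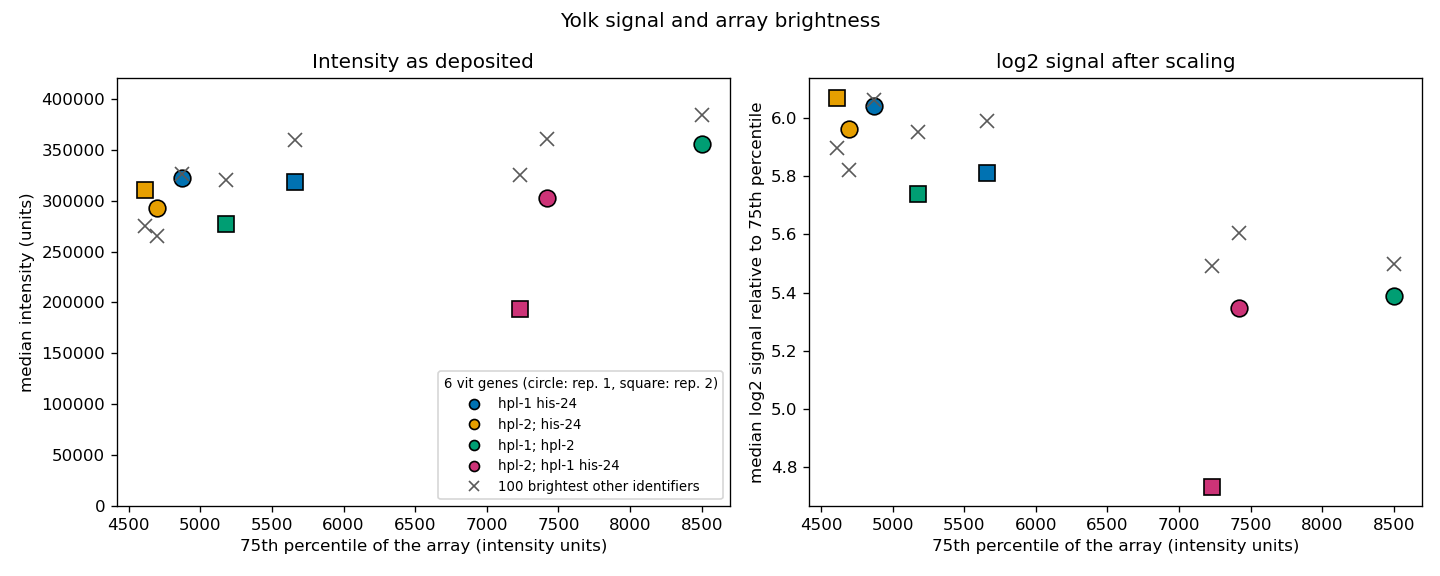
Median intensity as deposited (left, units) and median log2 signal after scaling (right) of the 6 vit genes and of the 100 brightest other identifiers, against the 75th percentile of each array (horizontal axis, intensity units). Scaled signals of both sets are lower on the 3 arrays whose percentile is 7231 or more, and the vit genes of triple mutant replicate 2, at 193372 units, lie below the other 7 arrays before scaling as well.

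The members varied together over the 8 arrays. Pearson's r between 2 member probes was 0.69 to 0.98, highest for vit-4 with vit-5, whose probes match each other's gene, and for vit-3 with its neighbour vit-4. The identifiers most like the mean of the 6 vit genes, out of 10902, were rps-28 and rps-18 (small ribosomal subunit, r = 0.990 and 0.986), pdi-2 (a protein disulphide isomerase, 0.983), eef-1B.2 (a translation elongation factor, 0.979) and rpl-9 (large ribosomal subunit, 0.973). Those most like rme-2, out of 14648, were iff-1 (0.972), lbp-9 (a lipid-binding protein, 0.967), rib-1 (0.960), slmp-1 (0.955) and hsp-90 (a chaperone, 0.955). These values rest on 8 arrays that share their scaling.

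Of 15 listed regulators of yolk synthesis 13 were tested, and ceh-60, a homeodomain gene, stood well above background on 0 of 8 arrays. At a log2 fold change beyond 1.5, 0 were called in each of the 6 comparisons. In triple mutants relative to hpl-2; his-24, 4 were higher and 1 lower, beside the 27.6% and 23.3% of all identifiers, and over the alternatives the higher count ran from 0 to 5. The kinase gene sgk-1, which acts with rict-1 in the control of yolk synthesis, was lower by -0.63 (adjusted p = 0.0033) and daf-2, the insulin receptor, was higher by 0.58 (adjusted p = 0.011). Against hpl-1 his-24, 0 were higher and 4 lower, and the lower count was 0 to 2 with any array of triple mutants, hpl-1 his-24 or hpl-1; hpl-2 left out. Relative to hpl-1; hpl-2, 1 was higher and 3 were lower, at adjusted p of 0.034 to 0.045, and the 3 ran from 0 to 3 with 1 array left out. Of all identifiers, 22.9% were higher and 19.1% lower in triple mutants relative to hpl-1 his-24, and 11.7% and 10.9% relative to hpl-1; hpl-2. In hpl-2; his-24 relative to hpl-1 his-24, 2 regulators were higher and 5 lower (median -0.18), beside 33.5% and 32.1% of all identifiers. There rict-1 was higher by 1.49 (adjusted p = 0.0031).

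dsc-4, the microsomal triglyceride transfer protein needed for lipoprotein secretion, followed an order unlike that of the vit genes. It read 0.39 and 0.65 in hpl-2; his-24, 1.70 and 1.69 in hpl-1 his-24, 0.78 and 0.96 in hpl-1; hpl-2, and 1.18 and 1.16 in the triple mutant. It was lower in hpl-2; his-24 relative to hpl-1 his-24, at -1.18 (adjusted p = 0.0003) and higher in triple mutants than in hpl-2; his-24 by 0.65 (adjusted p = 0.0055), where 7 yolk probes were lower. Of the other 2 genes of secretion, sar-1, a small GTPase of vesicle budding, was lower in triple mutants than in hpl-2; his-24 by -0.39 (adjusted p = 0.0088), and pdi-6, a protein disulphide isomerase, passed in no comparison.

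Of 17 tested genes of yolk endocytosis in hpl-2; his-24, 9 were higher and 2 lower than in hpl-1 his-24 (median 0.35), and 9 higher and 1 lower than in hpl-1; hpl-2 (median 0.36, which was -0.15 without scaling, where all identifiers moved by -0.55). The adaptor subunit gene apa-2 was higher by 1.14 and 0.91 (adjusted p = 0.0011 and 0.0044) and rme-8, named for a receptor-mediated endocytosis defect, by 0.897 and 1.205 (adjusted p = 0.00058 and 0.00044), while clathrin heavy chain chc-1 was lower by -0.47 and -0.65 (adjusted p = 0.017 and 0.0068). These counts of 9 stand beside the 33.5% and 23.5% of all identifiers that were higher. Without scaling they were 1 and 0, and the second was 4 without hpl-1; hpl-2 replicate 2. In the triple mutant, 1 of 17 was higher and 0 lower than in hpl-1; hpl-2, with a median of -0.05, beside 11.7% and 10.9% of all identifiers. Relative to hpl-2; his-24, 1 was higher and 6 lower (median -0.21), beside 27.6% and 23.3%, and the 6 ran from 0 to 13 over the alternatives. Relative to hpl-1 his-24, 2 were higher and 2 lower (median 0.04), beside 22.9% and 19.1%.

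Oocyte genes were detected on every array. All 18 genes of oocytes and eggshell were well above background on 8 arrays, and their median log2 signal lay between 3.21 and 3.56 on all of them. In the triple mutant 0 were higher and 1 lower than in hpl-1; hpl-2, beside 11.7% and 10.9% of all identifiers. Against hpl-1 his-24, 2 were higher and 0 lower, beside 22.9% and 19.1%. Against hpl-2; his-24, 3 were higher and 6 lower (median -0.20, and 0.45 without scaling), beside 27.6% and 23.3%. The count of 6 was 2 to 3 with 1 array left out and 0 to 12 over all alternatives. spn-4, a translational regulator of oocyte and embryo, was lower there by -0.81 (adjusted p = 0.0013) and egg-1, an oocyte surface receptor for sperm, was higher by 0.70 (adjusted p = 0.002).

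Vitellogenins are made in the intestine. Of 12 tested intestinal genes, 9 fell and 0 rose in triple mutants relative to hpl-1 his-24 (median -0.85), beside 19.1% of all identifiers lower and 22.9% higher, with mtl-2, a metallothionein, at -1.80 (adjusted p = 0.0019) and ifb-2, an intermediate filament of the gut, at -1.37 (adjusted p = 0.00034). In hpl-1; hpl-2, 1 was higher and 8 were lower than in hpl-1 his-24 (median -0.54), beside 18.7% of all identifiers lower. That count of 8 was 3 without either array of hpl-1 his-24 or without hpl-1; hpl-2 replicate 1. Without scaling the 9 became 3 and the 8 became 0. In hpl-2; his-24, 0 were higher and 8 lower (median -0.65) beside 32.1% of all identifiers lower, with the peptide transporter pept-1 at -2.92 (adjusted p = 1.6e-05), and there the yolk probes did not pass. In triple mutants relative to hpl-2; his-24, 3 were higher and 3 lower, beside 27.6% and 23.3% of all identifiers. The summed signal of the list ranged from 7.09 to 7.13 in the triple mutant, 7.35 to 7.52 in hpl-2; his-24, 7.30 to 7.67 in hpl-1; hpl-2 and 7.90 to 7.99 in hpl-1 his-24 on the log2 scale. The part of intestinal RNA in the yolk differences was not tested.

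**Figure D5:**
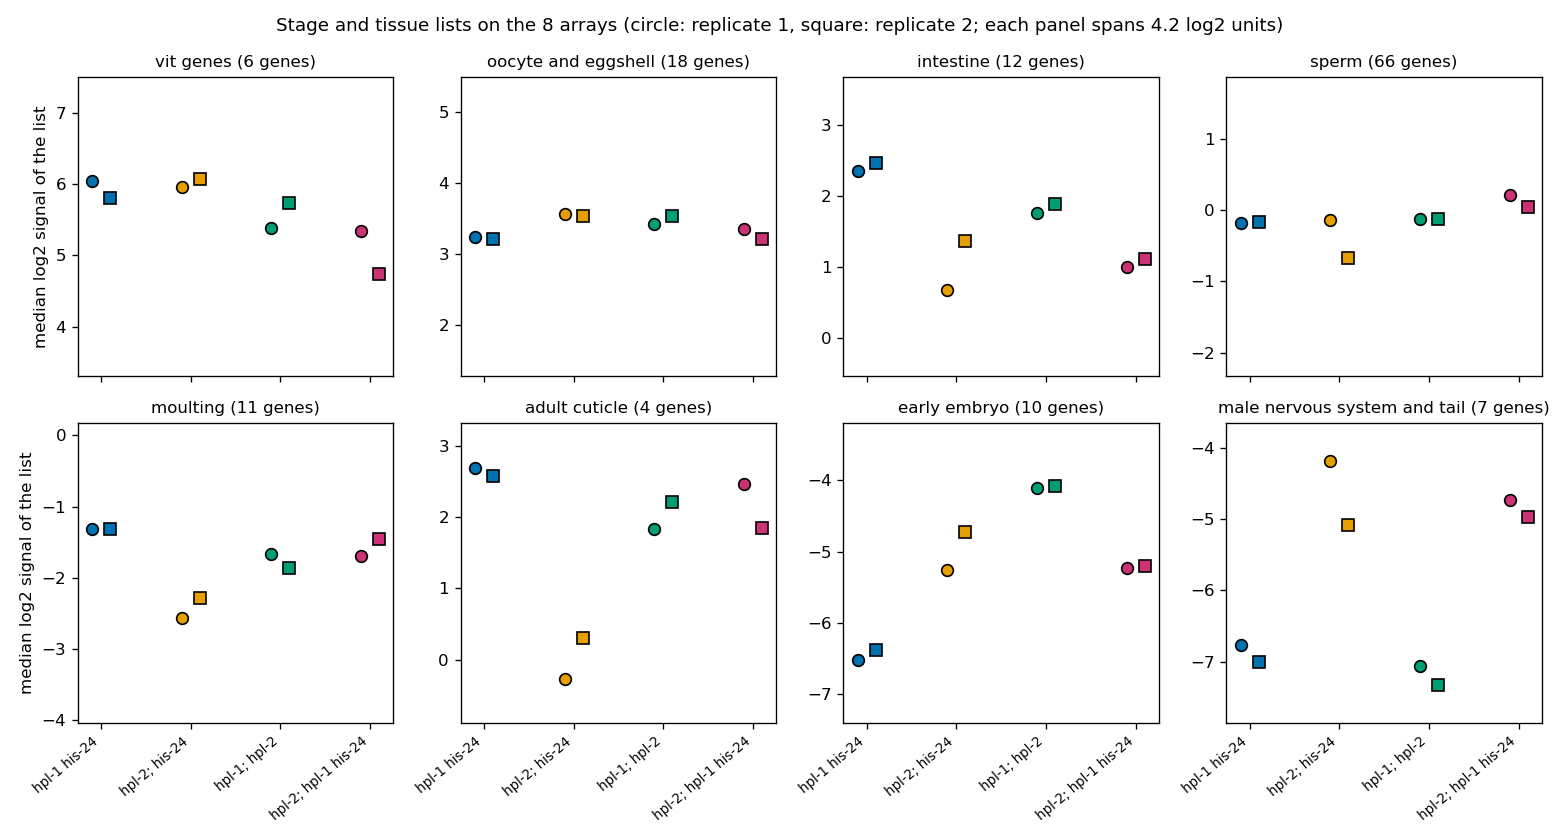
Median log2 signal (vertical axis) of the vit genes and of 7 lists of stage and tissue genes on each of the 8 arrays, by labelled genotype (horizontal axis). The oocyte list stays between 3.21 and 3.56, and the vit genes fall to 5.35 and 4.73 in the triple mutant. The median of the 4 adult cuticle genes is lowest in hpl-2; his-24, at -0.27 and 0.31, which does not hold for their summed signal.

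Genes of the last moult separated the genotypes in another order than the yolk genes. bli-1 and bli-2, collagens of the adult cuticle made at the last moult, read -7.28 and -6.77, and -5.42 and -4.89, in hpl-2; his-24. They were between -1.78 and -0.44 for bli-1 and between -0.98 and 0.13 for bli-2 on the other 6 arrays. bli-1 was therefore lower by -5.73, and bli-2 by -5.21, in hpl-2; his-24 than in hpl-1 his-24 (adjusted p = 3.2e-06 and 6e-06), while no vit gene passed the test between the same arrays. Of 11 moulting genes, 1 was higher and 7 were lower in that comparison, beside 33.5% and 32.1% of all identifiers. The adult collagens col-19 and col-7 averaged 5.21 and 5.47 in hpl-2; his-24 and 5.75 and 4.35 in the triple mutant. Of these col-7 was lower in the triple mutant at -1.13 (adjusted p = 0.028), as most yolk probes were. The summed signal of the 4 listed adult cuticle genes was 6.18 and 6.53 in hpl-2; his-24 and 6.42 and 6.09 in the triple mutant. It was 6.84 and 6.63 in hpl-1 his-24, and 6.18 and 6.72 in hpl-1; hpl-2.

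Sperm genes, which hermaphrodites express in the L4 stage before they make oocytes, were measured for 66 of 82 listed. In the triple mutant 34 were higher and 0 lower than in hpl-2; his-24, beside 27.6% of all identifiers higher. The counts were 4 higher and 0 lower against hpl-1; hpl-2, beside 11.7% of all identifiers higher, and 10 higher and 0 lower against hpl-1 his-24, beside 22.9%. In hpl-2; his-24, 30 were lower and 5 higher than in hpl-1 his-24, beside 32.1% of all identifiers lower. The 2 arrays of hpl-2; his-24 differed here. The median of the sperm list was -0.14 on replicate 1 and -0.68 on replicate 2. It was -0.17 and -0.16 in hpl-1 his-24, so only replicate 2 stood clearly apart from these. Without hpl-2; his-24 replicate 1 the counts of 34, 4, 10 and 30 became 59, 18, 21 and 57, and the 4 became 0 without triple mutant replicate 1 or hpl-1; hpl-2 replicate 1. Many of these genes are close copies of each other, and their values as single genes are uncertain. Germline genes were higher in hpl-1; hpl-2 than in hpl-1 his-24 (11 of 14, 0 lower), beside 20.2% of all identifiers higher, and this is the comparison in which vit-1 and vit-5 were lower. The 11 became 7, 5 and 6 without hpl-1 his-24 replicate 1, hpl-1 his-24 replicate 2 and hpl-1; hpl-2 replicate 1. Early embryo genes, which come from eggs held in adults, were tested for 10 genes. Of these, 6 were higher and 1 lower in hpl-1; hpl-2 than in hpl-1 his-24, beside 20.2% and 18.7% of all identifiers. The higher count was 2 when only identifiers well above background on all 8 arrays were tested.

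cwp-2, expressed in male-specific neurons, read -0.53 and -1.61 in hpl-2; his-24, -3.35 and -3.38 in hpl-1 his-24, -5.19 and -5.25 in hpl-1; hpl-2, and -1.35 and -1.46 in the triple mutant. Of 5 tested male genes, 4 rose and 0 fell in triple mutants relative to hpl-1; hpl-2, and 5 rose and 0 fell relative to hpl-1 his-24, beside 11.7% and 22.9% of all identifiers higher. The 4 ran down to 2 with an array of triple mutants or of hpl-1; hpl-2 left out, and the 5 ran down to 3 with 1 array left out. Against hpl-2; his-24, where most yolk probes were lower, 0 passed in either direction, 2 were higher without hpl-2; his-24 replicate 1 and 3 lower without its replicate 2. From 2 to 6 of the 7 listed male genes were well above background on an array. The summed male signal ranged from -0.88 to -0.80 in the triple mutant, -1.08 to -0.01 in hpl-2; his-24, -2.74 to -2.65 in hpl-1 his-24 and -3.57 to -3.56 in hpl-1; hpl-2, on the log2 scale. The parts of stage, of males and of the germline in the yolk differences were not tested.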

How the data were processed

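The authors scanned 1-colour arrays of Cy3-labelled RNA and deposited Agilent Feature Extraction (version 9.5.3.1) intensity values with the background subtracted and no normalization between arrays. They also deposited a log2 table of quantile-normalized median brightness, used here as an alternative. Columns of other samples numbered 0.

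The log2 signal was expressed relative to each array's 75th percentile over non-control spots, outlier spots were left out (92 to 238 per array), and each probe's 2 spots were averaged. The brightest probe stood for an identifier, and the test took the 17092 of 20113 identifiers that stood well above background on both arrays of some genotype. A probe counted as well above background when at least 50% of its spots were. limma (version 3.58.1, R 4.3.3) was fitted with 1 mean per genotype on 8 arrays, with two-sided tests and p-values adjusted over all identifiers by Benjamini-Hochberg. On simulated arrays, 200 genes were changed in the triple mutant by 2 log2 units up or down. Of these, 174 to 177 were recovered in the 3 comparisons of the triple mutant. Smaller changes, such as those of the yolk genes, were not simulated. A summed signal is the log2 of summed linear signals.

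The members and lists were chosen with earlier results of these data known. Named list genes are those with the largest changes in a comparison, at most 2 in each direction, or were chosen after their values were seen (dsc-4, pdi-6, sar-1, bli-1, bli-2, col-19, col-7, cwp-2). Likeness was ranked among identifiers well above background on 8 arrays with an SD of at least 50% of that of the pattern. The methods call the replicates biological, the labels name no separate cultures, and p-values then measure the spread between these arrays. Alternatives were other scalings and background corrections, filters, probe rules, slide or replicate blocks and each array left out. Array number limits the precision. Python 3.11.15, pandas 2.3.3, numpy 2.4.6 and matplotlib 3.10.9 were also used.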

Additional observations from a re-analysis of the deposited data

How the results depend on the processing

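Of 1016 alternative values of the members' fold changes, 970 kept their direction, of which 881 also kept their side of the threshold, 64 lost it and 25 gained it. The other 46 turned sign, 43 of them between values that did not pass the test. The remaining 3 were rme-2 in triple mutants relative to hpl-2; his-24 without scaling (0.22), vit-5 in hpl-2; his-24 relative to hpl-1; hpl-2 without scaling (-0.022), and rme-2 in hpl-1; hpl-2 relative to hpl-1 his-24 in the quantile-normalized table (0.32). The causes were not tested. No scaling and the vit-2 spot were alternatives chosen after seeing the data.

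Counts of members at an adjusted p below 0.05 moved without scaling from 2, 5 and 7 in triple mutants relative to hpl-1; hpl-2, hpl-1 his-24 and hpl-2; his-24 to 0, 0 and 1, from 2 to 0 in hpl-1; hpl-2 relative to hpl-1 his-24 and from 4 to 0 in hpl-2; his-24 relative to hpl-1; hpl-2. Quantile normalization gave 1 in triple mutants relative to hpl-1; hpl-2, 1 in hpl-1; hpl-2 relative to hpl-1 his-24 and 2 instead of 0 in hpl-2; his-24 relative to hpl-1 his-24, where scaling to the median gave 1 and the deposited quantile-normalized table gave 2. Slide as a fixed block on the 4 arrays of triple mutants and hpl-1; hpl-2 gave 6 there, and slide as a random block on 8 arrays gave 2. The shares of all identifiers that passed without scaling or under these other alternatives were not counted. With 1 array left out the counts ranged from 0 to 2, 4 to 6 and 5 to 6 in the 3 comparisons of the triple mutant, from 1 to 3 in hpl-1; hpl-2 relative to hpl-1 his-24, from 0 to 0 in hpl-2; his-24 relative to hpl-1 his-24 and from 1 to 4 in hpl-2; his-24 relative to hpl-1; hpl-2. Dropping the fold threshold moves the counts of called members from 0, 0, 1, 0 and 0 to 2, 5, 7, 2 and 4. The count of 1 member called, vit-3, became 0 under quantile normalization, normexp, the deposited quantile-normalized table and no scaling, 2 under scaling to the median, and 0 to 2 with 1 array left out.

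The replicate numbers do not pair the arrays: deviations of same-numbered arrays correlated between -0.30 and 0.18. With the replicate block, 2, 5, 5, 1, 0 and 4 members passed in the 6 comparisons. These were 5 instead of 7 in triple mutants relative to hpl-2; his-24, and 1 instead of 2 in hpl-1; hpl-2 relative to hpl-1 his-24. In the triple mutant relative to hpl-1; hpl-2 the crossed numbers share a slide (correlation 0.30), which is the slide block above. Scaling to the median moved the median of all identifiers by -0.25 in triple mutants relative to hpl-2; his-24, and without scaling it moved by 0.16 to 0.65 in the 3 comparisons of the triple mutant. With 2 arrays a genotype, vit-2 (SE 0.35) did not pass the test at -0.82 in triple mutants relative to hpl-1 his-24. vit-1 (SE 0.10) passed at -0.48 relative to hpl-1; hpl-2.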
